A study of Mus musculus with 10 samples.

Results

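The Cdkn2a and Cdkn2b locus was examined in 10 mouse leukemias by array comparative genomic hybridisation, which compares the amount of tumour and reference DNA at each probe. Of 402346 probes with a chromosome position, 242 lay in a 400 kb region of chromosome 4 that holds both genes, and these 242 probes were taken by position alone. In the mouse build mm9 the first began at 88758509 and the last ended at 89146917. The files do not assign probes to genes, so each gene was followed over an approximate interval. The Cdkn2a interval held 59 probes from 88920119 to 88939966, and the Cdkn2b interval held 4 probes from 88950274 to 88950951. The exons were not placed on mm9, so a loss is described by its probes.

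The leukemias were driven by BCR-ABL1, an oncogenic fusion tyrosine kinase. The tumours were 5 Ikzf1+/+ (wild-type) and 5 Ikzf1+/- (heterozygous), Ikzf1 encoding the lymphoid transcription factor Ikaros, and the Ikzf1+/- tumours carry 1 altered allele per the genotype labels. Tumour DNA came from GFP-positive leukemic marrow and was labelled with Cy5, and DNA of non-leukemic marrow of the same stage was labelled with Cy3. A design note for the series gives B220+ B cells as the normal source instead. How BCR-ABL1 was introduced, and the age and sex of the mice, are not given in the sources used here. A log2 ratio above 0 means more DNA in the tumour, and a loss of 1 of 2 copies in every cell corresponds to -1. The labels do not say that tumours of a genotype came from separate animals, so a p-value reflects only how these samples vary, which may be technical.

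Cdkn2a encodes different proteins from alternative first exons. p16Ink4a binds Cdk4 and Cdk6 and thereby keeps the Rb protein active, and p19Arf restrains Mdm2 and thereby stabilises p53. The neighbouring Cdkn2b encodes p15Ink4b, a further inhibitor of Cdk4 and Cdk6. Loss of the locus is a known event in BCR-ABL1 lymphoid leukemia.

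The locus has 3 RefSeq promoters, and they are shown because the low probes of both tumours with a loss extended on either side of the intervals of these genes. All 3 matched by symbol in the RefSeq table of build GRCm38.p6 and lie on the minus strand. Each line gives the 250 bases before a transcript start, 5′ to 3′, with CG dinucleotides in capitals. The first start lies farther upstream in Cdkn2a, where the p19Arf transcript begins, and the second lies inside the gene, where the p16Ink4a transcript begins.
Cdkn2a, upstream start: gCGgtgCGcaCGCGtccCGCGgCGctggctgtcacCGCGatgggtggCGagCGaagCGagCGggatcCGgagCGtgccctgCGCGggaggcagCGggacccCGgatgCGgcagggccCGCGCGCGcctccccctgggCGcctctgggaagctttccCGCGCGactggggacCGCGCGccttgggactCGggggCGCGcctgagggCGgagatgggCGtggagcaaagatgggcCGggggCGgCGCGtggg
Cdkn2a, inner start: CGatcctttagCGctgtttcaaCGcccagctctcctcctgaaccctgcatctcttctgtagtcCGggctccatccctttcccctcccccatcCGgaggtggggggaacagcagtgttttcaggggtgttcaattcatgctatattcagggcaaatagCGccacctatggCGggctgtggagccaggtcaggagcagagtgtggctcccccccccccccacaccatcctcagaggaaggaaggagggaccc
Cdkn2b: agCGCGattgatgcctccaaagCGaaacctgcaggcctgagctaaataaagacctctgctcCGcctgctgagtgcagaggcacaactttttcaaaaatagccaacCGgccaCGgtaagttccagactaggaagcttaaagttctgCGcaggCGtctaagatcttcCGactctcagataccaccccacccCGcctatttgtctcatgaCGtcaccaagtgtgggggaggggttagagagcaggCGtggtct
The upstream Cdkn2a promoter held 40 CG dinucleotides and 78.4% G and C, and 1.31% of 32851 promoters of this length held as many CG. The inner Cdkn2a promoter held 7 CG with 60% G and C, a count reached by 46.3% of promoters. The Cdkn2b promoter held 12 CG with 53.6% G and C, a count reached by 33.5%. The motif GGGCGG, searched on both strands, was found 2 times in the upstream Cdkn2a promoter and not in the other 2 windows, and 32.7% of all promoters hold it. These windows are of another build than the probes, so no probe was placed on them.

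The arrays differed between genotypes in ways that touch the whole series. The noise between neighbouring probes was 0.184 to 0.222 as an SD of log2 ratios in Ikzf1+/+ arrays and 0.171 to 0.194 in Ikzf1+/- arrays. The median background-subtracted Cy5 signal was 89.4 to 160.4 and 203.0 to 229.7. The median ratio on chromosome X was +0.84 to +0.94 in Ikzf1+/+ arrays and +0.09 to +0.14 in Ikzf1+/- arrays, and that on Y was -2.87 to -2.30 and +0.05 to +0.09. The tumour and the reference were thus unlike in X and Y dosage on Ikzf1+/+ arrays only. The arrays lay on 5 slides, and 1 slide held both genotypes.

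Coverage of the locus was dense but uneven. Probe starts lay 340 bp apart in the median over the region and 301 bp apart in the Cdkn2a interval, against 5.34 kb over the autosomes. The largest gap within the region ran for 82.1 kb, from 88950951 to 89033076. The Cdkn2b interval is 10 kb wide, and its 4 probes cover only its first part.

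Cdkn2a was lost in 2 of 5 Ikzf1+/+ tumours and in 0 of 5 Ikzf1+/- tumours. Loss calls in at least 2 Ikzf1+/+ and in 0 Ikzf1+/- tumours touched 0.0683% of 23426 autosomal windows of 100 kb. The mean log2 ratio over its 59 probes was -3.17 in Ikzf1+/+ tumour 1, +0.06 in tumour 2, +0.08 in tumour 3, +0.19 in tumour 4 and -0.58 in tumour 5. In Ikzf1+/- tumours 1 to 5 it was -0.03, -0.01, +0.03, +0.02 and +0.03. Tumours 1 and 5 of the Ikzf1+/+ group stood below the other 8 tumours, while the remaining Ikzf1+/+ tumours stood above every Ikzf1+/- tumour, so the groups overlapped. All 59 probes lay below 0 in Ikzf1+/+ tumours 1 and 5, so no probed stretch of the Cdkn2a interval was kept at the level of the reference. In the Ikzf1+/- tumours 26 to 35 of the 59 lay below 0.

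The probes of the Cdkn2b interval were low in the same tumours. The rest of this interval lies in the 82.1 kb without probes. A loss there is inferred from low probes on either side and was not measured. Over the 4 probes the mean log2 ratio was -3.68 in Ikzf1+/+ tumour 1, +0.12 in tumour 2, +0.16 in tumour 3, +0.15 in tumour 4 and -0.46 in tumour 5. In Ikzf1+/- tumours 1 to 5 it was +0.03, -0.02, +0.10, +0.03 and +0.12. Only Ikzf1+/+ tumours 1 and 5 lay below the lowest Ikzf1+/- tumour, and all 4 probes were below 0 in both of them. The 30 probes between the intervals of the genes followed the same pattern, at -3.23 in Ikzf1+/+ tumour 1, -0.50 in Ikzf1+/+ tumour 5 and -0.02 to +0.13 in the Ikzf1+/- tumours.

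**Figure D1:**
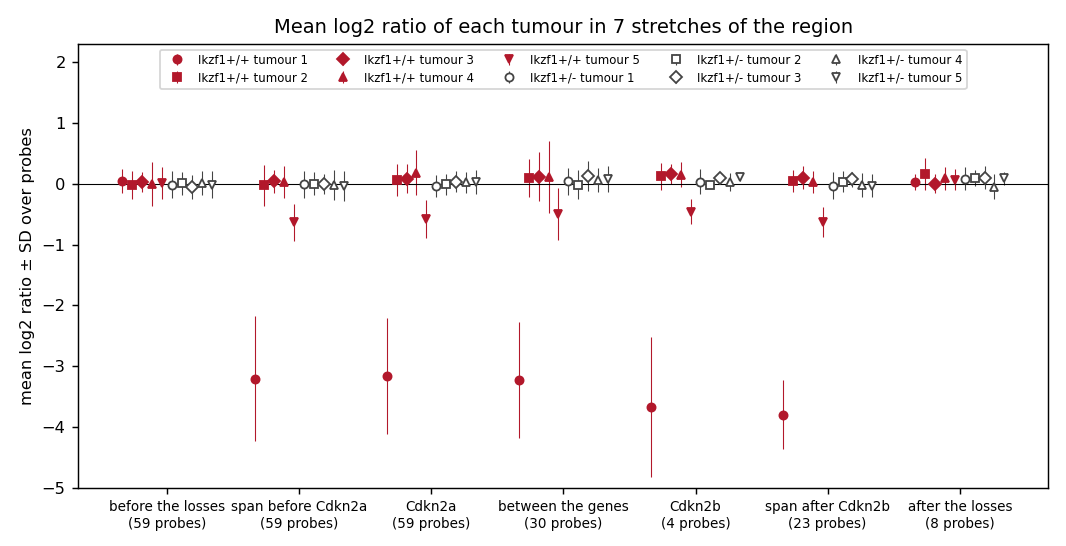
Mean log2 ratio of tumour over reference (vertical axis) in 7 consecutive stretches of the region (horizontal axis, with the number of probes), 1 point per tumour with the SD over probes as the bar. Filled points are Ikzf1+/+ and open points Ikzf1+/- tumours; Ikzf1+/+ tumour 1 lies below -3 and tumour 5 between -0.64 and -0.46 in the 5 middle stretches, and all 10 tumours lie near 0 in the outer stretches.

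The comparison of genotypes did not pass a test for either gene. Over Cdkn2a the wild-type tumours averaged -0.68 ± 1.42 and the heterozygous tumours +0.01 ± 0.03 (SD over 5 tumours each). The heterozygous mean exceeded the wild-type mean by 0.69 (two-sided exact permutation p = 0.444). For the 4 probes of the Cdkn2b interval the means were -0.74 ± 1.66 and +0.05 ± 0.06, a difference of +0.79 (n = 5 each, exact permutation p = 0.444). Over the whole region the difference was +0.53 (exact permutation p = 0.444, where 5 against 5 cannot go below 0.00794). The 3 p-values rest on the same arrays and overlapping probes. Without Ikzf1+/+ tumour 1 the differences were +0.07, +0.06 and +0.07, and with normexp background correction they were +0.24, +0.17 and +0.14. That correction adds an offset of 50 to both channels, which shrinks ratios where signals are low. On the slide that held both genotypes, Ikzf1+/- tumour 1 exceeded Ikzf1+/+ tumour 5 by 0.54 over Cdkn2a and by 0.50 over Cdkn2b, with 1 array on each side and no test.

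Segmentation of each array called a loss over both genes in the same 2 of 5 Ikzf1+/+ tumours and in 0 of 5 Ikzf1+/- tumours (Fisher's exact test, two-sided, p = 0.444). With losses in only 2 tumours, Fisher's test could not give a lower p. It rests on the same 2 tumours as the permutation tests and adds no separate evidence. A called loss had at least 5 probes and a mean of -0.3 or lower. Of the 100 kb windows, 0.213% were touched by a loss call in at least 2 tumours of either genotype. Loss calls touched 3 of the 5 windows that reach into the region in Ikzf1+/+ tumour 1 and 3 of 5 in tumour 5, against 0.111% and 0.282% of all windows. Tested across all windows with limma, 0.0213% passed a Benjamini-Hochberg adjusted p of 0.05, and 0 of the 5 windows of the region did. At an unadjusted p under 0.05 it was again 0 of 5, against 16.6% of all windows. The window with most probes held 128, from 88900001 to 89000000. Its mean was -0.70 ± 1.43 for the wild-type tumours and +0.02 ± 0.03 for the heterozygous tumours (SD over 5 tumours each; adjusted p = 0.492 by limma).

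**Figure D2:**
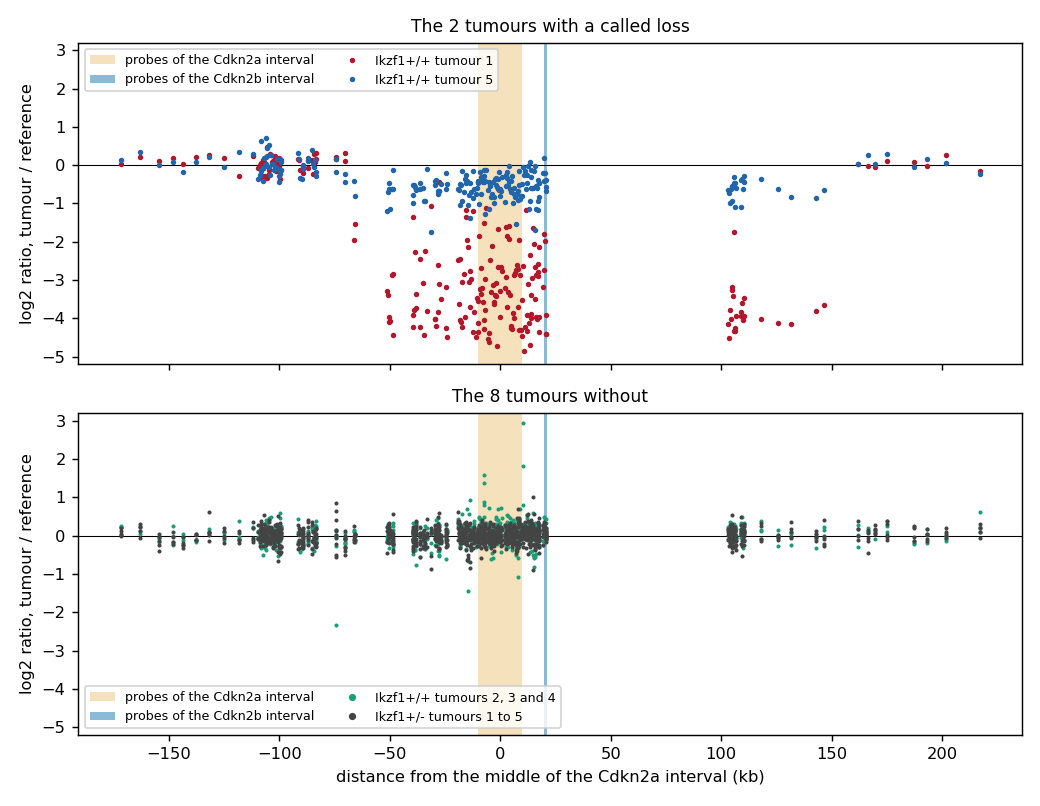
Log2 ratio of tumour over reference (vertical axis) of each of the 242 probes against its distance in kb from the middle of the Cdkn2a interval (horizontal axis). The upper panel shows Ikzf1+/+ tumours 1 and 5 and the lower panel the other 8 tumours, with the probes of both genes shaded; the 2 tumours fall and return at nearly the same places, tumour 1 to about -3.29 and tumour 5 to about -0.59, and the empty stretch to the right of Cdkn2b is the 82.1 kb without probes.

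By their low probes, the losses of the 2 tumours had nearly the same extent. The 2 were read by unlike rules. For tumour 1 the ends came from segments of any length with a mean of -1 or lower. For tumour 5 they came from its call, at -0.3 or lower. In Ikzf1+/+ tumour 1 low probes ran from 88863910 to 89076517, which is 175 probes over 212.6 kb, with a mean of -3.29 ± 0.96 (SD over probes). The joined call in this tumour began at 88879097, with 172 probes and a mean of -3.30, and a further 3-probe segment before it was too short to be called. Without joining of neighbouring called segments, the call over Cdkn2a with most probes ran from 88928793 to 88934417 with a mean of -2.58. In Ikzf1+/+ tumour 5 the call ran from 88859687 to 89076517, which is 177 probes over 216.8 kb, with a mean of -0.59 ± 0.32. The loss of tumour 1 was made of 17 segments and that of tumour 5 of a single one. In tumour 1, 157 of the 175 probes had Cy5 not well above background. The segment counts of the 2 tumours are therefore not comparable, and the 17 segments do not show separate deletions.

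At the far end, beyond Cdkn2b, both losses ended at the same probe. The last low probe ended at 89076517 and the next probe began at 89092071, so both ends lie in this stretch of 15.6 kb without probes. The 10 probes beyond it averaged +0.05 ± 0.12 in tumour 1 and +0.04 ± 0.17 in tumour 5 (SD over probes).

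At the near end the runs of low probes differed by 2 probes, from 88859687 to 88859820. The mean of these 2 was +0.22 in Ikzf1+/+ tumour 1 and -0.34 in tumour 5. In Ikzf1+/+ tumours 2, 3 and 4 it was -0.18, -0.20 and -0.05, and in Ikzf1+/- tumours 1 to 5 it was -0.09, +0.02, -0.23, -0.16 and -0.40. This mean of tumour 5 was within the range of tumours without a loss, although its first probe alone, at -0.45, was below the lowest of them at -0.39. By themselves these 2 probes do not show whether its loss begins before them. If they are left out, both losses begin in the same 4.09 kb between 88859820 and 88863910. Whether the breakpoints are the same at the base level was not measured.

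**Figure D3:**
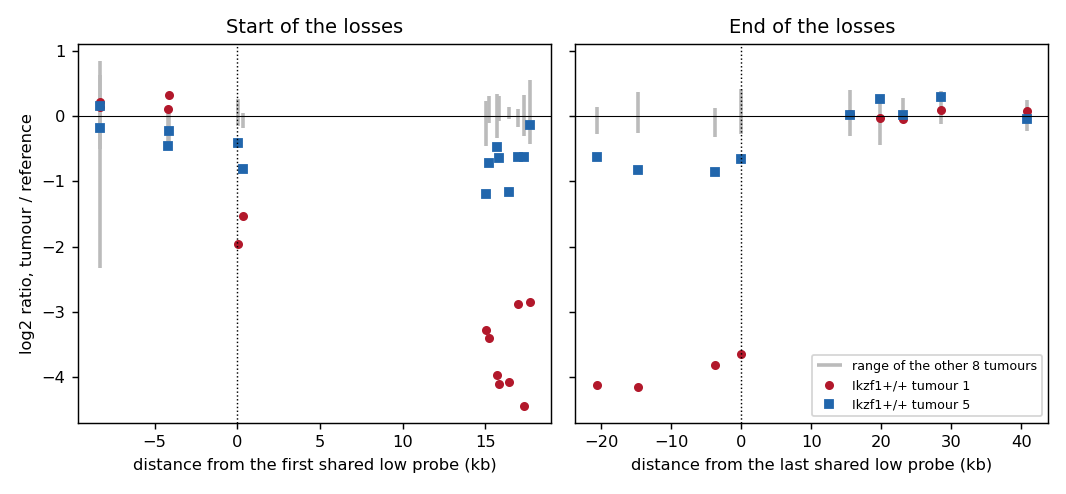
Log2 ratio (vertical axis) of single probes around the start and the end of the losses, against the distance in kb from the first and from the last probe that is low in both tumours (horizontal axes). Grey bars give the range of the other 8 tumours; both tumours are low from 0 kb in the left panel and up to 0 kb in the right panel, and the 2 probes of tumour 5 at about 4 kb before the start lie at -0.45, below the grey range, and at -0.23, within it.

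Outside the shared span the ratios of both tumours with a loss lay near 0. Over the 59 probes of the region before the shared span the mean was +0.04 in Ikzf1+/+ tumour 1, +0.02 in tumour 5, -0.01 to +0.03 in Ikzf1+/+ tumours 2, 3 and 4 and -0.05 to +0.01 in the Ikzf1+/- tumours. Over the 8 probes after it the mean was +0.03 in tumour 1, +0.07 in tumour 5 and -0.05 to +0.10 in the Ikzf1+/- tumours. Ikzf1+/+ tumours 2, 3 and 4 lay at +0.16, 0.00 and +0.09 there, tumour 2 being farthest from 0. Chromosome 4 outside the region lay between -0.02 and 0.00 in all 10 tumours.

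All 5 stretches of the shared span were low in both tumours. In Ikzf1+/+ tumour 5 the mean was -0.64 over the 59 probes before Cdkn2a, -0.58 over Cdkn2a, -0.50 between the genes, -0.46 over Cdkn2b and -0.63 over the 23 probes beyond the gap. The corresponding means of tumour 1 were -3.21, -3.17, -3.23, -3.68 and -3.80. The SD over probes was 0.20 to 0.43 within these stretches in tumour 5 and 0.57 to 1.15 in tumour 1. Differences between stretches were not tested, and in tumour 1 most of these values rest on Cy5 signals near background.

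Runs of 5 neighbouring probes were averaged to look for a shorter loss in the other tumours. Of 171 such runs in the shared span, 171 lay at -0.3 or lower in Ikzf1+/+ tumour 1 and 166 in tumour 5. Among autosomal runs 1.79% and 1.20% were that low in the same tumours. In the other 8 tumours the count was 0 or 1 of 171, at most 0.585%, and the autosomal share was 0.0620% to 1.21%. No run of the span in these 8 tumours was below -0.38. A loss confined to the 82.1 kb without probes would not be detected.

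The 2 losses differed in depth. The mean of the shared span was -3.29 in Ikzf1+/+ tumour 1, a linear ratio of 0.103, and -0.59 in tumour 5, a linear ratio of 0.665. Ikzf1+/+ tumours 2, 3 and 4 had means of +0.04, +0.08 and +0.10. Those of Ikzf1+/- tumours 1 to 5 were -0.01, 0.00, +0.04, +0.01 and +0.01. In tumour 1, 173 of 175 probes were below -1, against 0.226% of autosomal probes, and in tumour 5 it was 17 of 175, against 0.11%. In tumour 5, 173 of 175 probes were below 0, where 50% of autosomal probes lie by centring. The value of tumour 5 is between the 0 of an intact locus and the -1 of 1 lost copy in every cell. Fewer tumour cells with a loss of both copies and more cells with a loss of 1 copy cannot be told apart here, and the share of leukemic cells in each DNA was not measured.

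The signal of tumour 1 set a limit to its measured depth. Of the 175 probes, 157 (89.7%) had Cy5 signals that were not well above background, against 0.937% of autosomal probes on this array. These probes had a median Cy5 signal of 7.86 beside a median Cy3 signal of 125.7. The lowest autosomal Cy5 signal well above background, 36.9, was put in place of theirs where it was higher. By the mean log2 ratio, tumour DNA at the 157 probes was then 3.05-fold lower than reference DNA. Span probes with Cy5 of 38.2 and 41.1 were still not well above background, so 3.05-fold is not a strict lower bound. This value holds for the mean and not for each probe, the highest of them being -0.43 as measured. The mean of all 175 as measured corresponds to 9.75-fold. The 18 probes with Cy5 well above background averaged -1.57 ± 0.42 (SD over probes), and tumour 5 averaged -0.31 ± 0.26 at these 18 and -0.62 ± 0.31 at the 157. Across the 157 probes the log2 Cy3 signal and the ratio of tumour 1 correlated with r = -0.62. The ratio is computed from that Cy3 signal, so the values of tumour 1 at dim probes are not independent of the brightness of the reference. With normexp background correction the mean of the call was -0.70 in tumour 1 and -0.41 in tumour 5. Its offset of 50 in both channels shrinks the ratios of dim probes, so these means are not a measure of depth.

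On the same arrays the Y chromosome, which had low ratios in all 5 Ikzf1+/+ tumours, served as a comparison. In Ikzf1+/+ tumour 1 the median ratio over 606 Y probes was -2.62, and 90.8% of them had Cy5 not well above background, close to the 89.7% of the lost span. In Ikzf1+/+ tumour 5 the Y probes lay at -2.40 with 79.5% not well above background, while in its lost span this share was 8.57%. In the Ikzf1+/- tumours 0.571% to 1.14% of the span's probes were not well above background.

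The reference signal over the locus was near that of the rest of each array, and the tumour signal was low. The median Cy3 signal of the shared span was 0.964 to 1.03 times the array's autosomal median on the 10 arrays, and over Cdkn2a 1.05 to 1.15 times. The median Cy5 signal of the span was 0.0642 times the array's median in tumour 1 and 0.604 times in tumour 5.

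**Figure D4:**
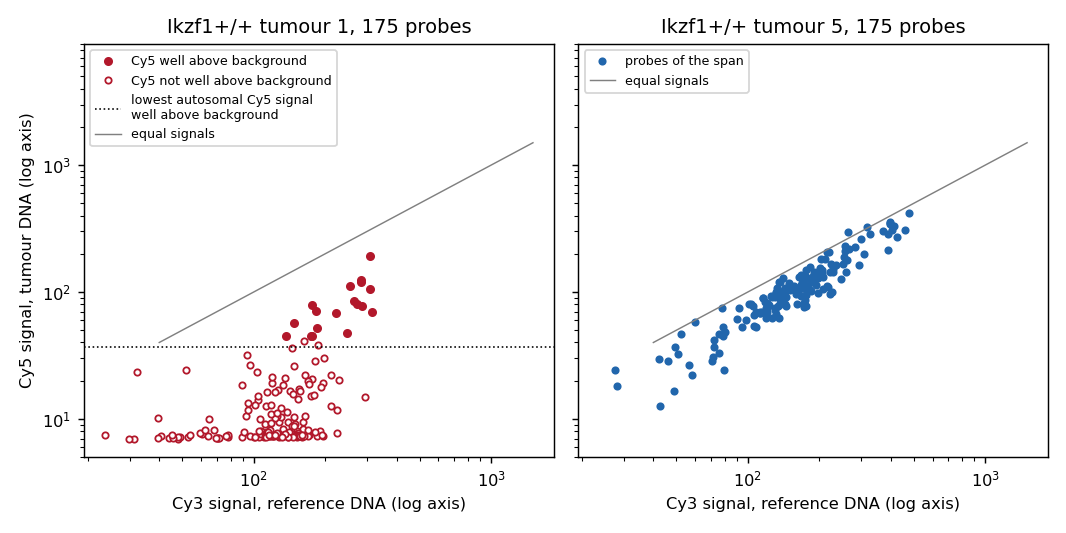
Cy5 signal of tumour DNA (vertical log axis) against Cy3 signal of reference DNA (horizontal log axis) for the 175 probes of the shared span in Ikzf1+/+ tumours 1 and 5. The line marks equal signals and the dotted line the lowest autosomal Cy5 signal well above background (36.9); 157 probes of tumour 1 are open symbols, while those of tumour 5 run in parallel to and below the line.

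Inside the loss of tumour 1, 10 probes departed from the median of their 10 neighbours by more than 2 on the log2 scale. All 10 were higher than their neighbours and still below 0, and 6 of the 10 had Cy5 signals well above background. The highest of these 6 lay at -0.66, from 88929465 to 88929514 in the Cdkn2a interval. Most neighbours were not well above background, so the sizes of these departures are not measured quantities. Across the 175 probes the ratios of the 2 tumours correlated with r = 0.06, a description over probes that share the reference design. At 157 of them Cy5 of tumour 1 was not well above background, so this r cannot show whether the departures were shared. Tumour 5 lay between -0.62 and -0.13 at the 6 departing probes with Cy5 well above background.

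The locus ranked high among the losses of both tumours. In Ikzf1+/+ tumour 1 it was the deepest of 9 called losses and the next lay at -1.12, on chromosome 14. In tumour 5 it was the 5th deepest of 29. In each tumour 1 other loss held more probes. Besides the locus, 1 of 8 losses of tumour 1 (12.5%) and 1 of 28 losses of tumour 5 (3.57%) overlapped a loss of the other tumour.

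Single probes stood above 0 in the Ikzf1+/+ tumours that kept the locus. They were singled out after their values were seen, and no test was made. A probe at 88922630 to 88922674, in the Cdkn2a interval, lay at +0.50, +0.87 and +1.39 in Ikzf1+/+ tumours 2, 3 and 4, at -0.12 in tumour 5 and at -4.27 in tumour 1. It lay between 0.00 and +0.20 in the Ikzf1+/- tumours, below all 3 of the intact Ikzf1+/+ tumours. Its neighbour at 88922811 to 88922855 lay at +0.18, +0.80 and +1.60 in tumours 2, 3 and 4, at -0.27 in tumour 5, at -4.04 in tumour 1 and between -0.25 and +0.16 in the Ikzf1+/- tumours.

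A probe at 88940259 to 88940306, just beyond the end of the Cdkn2a interval, had the largest values. It lay at +0.81, +1.82 and +2.94 in Ikzf1+/+ tumours 2, 3 and 4, at -0.06 in tumour 5, at -2.63 in tumour 1 and between -0.28 and +0.11 in the Ikzf1+/- tumours. Its 10 neighbours had medians of +0.23, +0.06 and +0.21 in tumours 2, 3 and 4. The order of the tumours was the same at the 3 probes, with tumour 4 above 3 and 3 above 2. In tumour 4 its Cy5 signal was 10.3 times the array's median and its Cy3 signal 1.35 times, so the tumour channel was the high one. Log2 ratios of at least 1.5 occurred at 0.0693% of autosomal probes in tumour 4 and at 0.00680% in tumour 3.

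**Figure D5:**
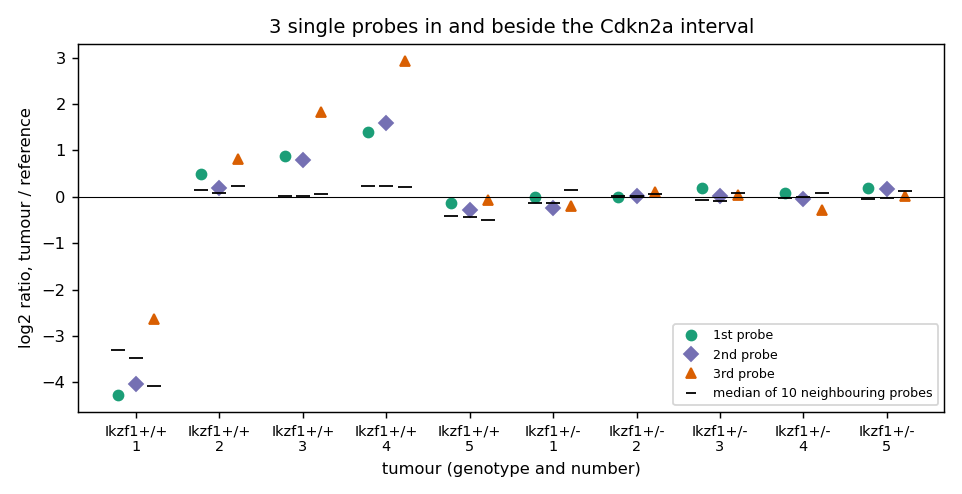
Log2 ratio (vertical axis) of 3 single probes, in order of position, in each of the 10 tumours (horizontal axis), with the median of 10 neighbouring probes as a dash. Ikzf1+/+ tumours 2, 3 and 4 rise in that order, up to +2.94 at the 3rd probe, with dashes near 0, and the 5 Ikzf1+/- tumours stay between -0.28 and +0.20.

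The first 2 of these probes fell in the only gain called in the region. It had 9 probes from 88922630 to 88925571 in Ikzf1+/+ tumour 4, with a mean of +0.61 ± 0.53 (SD over probes). The same 9 probes lay at +0.10 in tumour 2, +0.20 in tumour 3 and -0.04 to +0.06 in the Ikzf1+/- tumours. Short gains were also called elsewhere on the array of tumour 4, such as 19 probes on chromosome 8 at +0.95. The share of all windows with a gain call was not computed, so this gain is not shown to be particular to the locus.

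Other genes of the pathway could be followed only by chromosome. Of 32 genes, the members included, all 32 were matched to a chromosome in the GRCm38 table, and 6 lie on chromosome 4. A whole-chromosome median of +0.2 or more in any tumour concerned 1 gene, Cdk6, a kinase that p16Ink4a and p15Ink4b inhibit. Its chromosome 5 lay at +0.46 in Ikzf1+/+ tumour 3 and +0.21 in tumour 5. Tumour 5 thus had the locus loss and a raised median of chromosome 5, and tumour 1 lay at 0.00. No gain was called on chromosome 5 in tumour 5. A called segment needed a mean of at least +0.3, so a shift of the whole chromosome near +0.21 could not be called. A loss of 183 probes was called there from 3400849 to 3459936, at -0.34. Nearly the same stretch was called as a loss in Ikzf1+/- tumour 5, at -0.31. It also interrupted the gain calls of Ikzf1+/+ tumour 3, which ended at 3400479 and resumed at 3459652. Cdk6 was not placed on mm9, so its own copy number was not determined. A median of -0.2 or less concerned 0 of the 32 genes, and the chromosomes of Trp53, Rb1 and Mdm2 stayed between -0.03 and +0.04 in all 10 tumours. Such medians cannot show a change of a single gene. In Ikzf1+/+ tumour 1 a gain of 58 probes was called on chromosome 10, that of Mdm2. It ran from 117126240 to 117146475, at +0.37, and whether it covers Mdm2 was not determined. In the gene order of the same table, which is not that of mm9, the nearest protein-coding genes on either side of Cdkn2a and Cdkn2b are Mtap, a methylthioadenosine phosphorylase, and Dmrta1, a DM-domain transcription factor. Whether the losses reach these genes was not determined.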

How the data were processed

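The members and the gene list were chosen with earlier results of these data known. Per the file headers, spots were quantified with Agilent Feature Extraction 10.7.3.1 on mm9 (the submitters' processing notes name 10.5.1.1), and the deposited processed Cy5 and Cy3 intensity is background-subtracted and dye-normalised. The deposited log10 ratio and the authors' series matrix of log2 ratios, with a slope of 1.00 against it on every array, were used as a check and an alternative. The matrix medians were -0.0194 to -0.0006, so the matrix was not centred.

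For each probe, log2 of Cy5 over Cy3 was averaged over spots, without outlier spots, and centred on the autosomal median. Segments came from penalised least-squares change points (at least 3 probes, a penalty factor of 2, single probes held within 4 noise SDs of the median of 11 neighbouring probes). Called segments were joined across segments of under 5 probes or at 0.15 or more in the same direction, a step added after the data were seen. Windows of 100 kb with at least 3 probes were tested with limma 3.58.1 in R 4.3.3. Differences between genotypes were tested over 252 exact splits. Segmentation, window test and permutation were tested on simulated data. Python 3.11.15 with numpy 2.4.6, pandas 2.3.3, scipy 1.17.1, numba 0.67.0 and matplotlib 3.10.9 was used. The number of arrays limits the precision. Cy5 carried tumour DNA on every array, so a constant dye bias is not removed. Named were the members, the probes at the ends of the losses, probes departing from their neighbours by over 2, the pathway list and the 5 windows most like the locus. The alternatives were other background and dye corrections, centring, spot and probe filters, call settings, slide and replicate blocks, and leaving out each array.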

Additional observations from a re-analysis of the deposited data

Results flagged for a closer look

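Ikzf1+/+ tumour 1 stood far from the other 4 tumours of its genotype at the locus. Its mean log2 ratio was -2.37 over the whole region, -3.17 over Cdkn2a and -3.68 over Cdkn2b. Its distance to the nearest tumour, Ikzf1+/+ tumour 5, was 0.797, 0.772 and 0.838 of the range of the group, above the limit of Dixon's test for 5 samples. Chance marks about 1 in 20 groups, and the 3 measures come from overlapping probes of the same arrays. In tumour 1, Cy5 was not well above background at 51 of 59 Cdkn2a probes and 4 of 4 Cdkn2b probes. The size of its distance is therefore not a measured quantity, and whether the limit is passed at a shallower depth was not tested.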

How the results depend on the processing

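The number of tumours with a loss over both genes was 2 in all 10 alternatives with a test, and 1 to 2 when single arrays were left out, being 1 without Ikzf1+/+ tumour 1 or without tumour 5. The genotype differences over Cdkn2a, Cdkn2b and the region kept their sign in every alternative run, with exact permutation p from 0.167 to 0.937. Leaving out single arrays gave +0.07 to +0.91, +0.06 to +1.02 and +0.07 to +0.68. The start and the end of the loss in Ikzf1+/+ tumour 5 moved in none of the 8 alternatives run for them. In tumour 1 the start was 88917436 with normexp, which used median spot signals, 88902471 without the limit on single probes and 88928793 without joining, which also moved its end to 88934417. Its mean was -0.70 with normexp, -3.27 with loess, -3.48 as a median and -2.58 without joining. The mean of tumour 5 was -0.41 with normexp, -0.56 with loess and -0.61 from the series matrix. The offset of 50 in normexp shrinks the ratios of dim probes, and its share in the normexp shifts was not tested. The cause of the other shifts was not tested. The no-joining values were added after the data were seen.

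The count of windows differing between genotypes, 5 of 23426 with limma, was 71 with normexp, 1 with loess, 18 from the series matrix, 0 with medians over probes (3019 at an unadjusted p under 0.05) and 0 with at least 10 probes per window (3125 at an unadjusted p under 0.05). It was 1 to 25 without single arrays, 25 being without Ikzf1+/+ tumour 3. Same-numbered tumours deviated together with r of -0.02 to 0.20, and 2 Ikzf1+/+ tumours matched their own number best. These values do not show a pairing and cannot exclude it, since paired tumours need not share copy-number changes. With the replicate block the count was 1, and the differences of +0.69, +0.79 and +0.53 had an exact sign-flip permutation p of 0.5. Cy5 signal at background limits the depth of the loss in tumour 1.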

Other observations

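The autosomal windows of 100 kb whose ratios ran most alike with the Cdkn2a mean over the 10 arrays began at 51800001 on chromosome 8, 46700001 on chromosome 1, 69900001 on chromosome 6, 95700001 on chromosome 1 and 29500001 on chromosome 9, with Pearson r of 0.973, 0.968, 0.964, 0.962 and 0.952. In Ikzf1+/+ tumour 1 they lay at -0.33, -0.22, -0.54, -0.21 and -0.22. Without Ikzf1+/+ tumours 1 and 5, r over the other 8 arrays was -0.04, -0.29, 0.65, 0.46 and 0.04. The likeness was thus near 0 or negative in 3 of the 5 windows without them, and 0.65 and 0.46 in the other 2. These values are a description of windows picked for their likeness, with no test.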
